A study of Mus musculus with 2 samples.

Results

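The mitochondrial carriers of the SLC25 family were followed in brown fat of mice kept in the cold and of control mice. Members were all protein-coding genes in GENCODE mouse release M21 whose symbol begins with Slc25a, other than Slc25a1 and Slc25a20. The rule gave 45 genes. Of these, 39 were among the 15523 annotated genes with at least 1 read in the series, and 26 had at least 20 reads over both libraries. The cold library was poly(A)+ RNA pooled from interscapular brown adipose tissue, a fat depot specialised for making heat, of 3 male wild type C57BL/6N mice of 20 weeks housed singly at 4 °C for 24 h. The control library was the same tissue and strain, also from an age of 20 weeks. General housing was at 22 to 24 °C, and the number of mice in the control pool is not stated in the labels. Native RNA was read on a nanopore from the 3' end, with 1215617 reads in the cold and 1698124 reads in the control library. The protocol text attached to the control describes the cold treatment too, so the groups rest on the treatment label.

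SLC25 proteins sit mostly in the inner mitochondrial membrane and swap or import the solutes that the matrix cannot make or must release. They carry ADP and ATP, phosphate, nucleotides, cofactors, amino acids, organic acids and iron, and the uncoupling proteins belong to the same family. In brown fat, where respiration is run for heat, such transport supplies the matrix with fuel and cofactors. The proteins are made in the cytosol, pass the outer membrane pore and are inserted by a dedicated inner membrane complex.

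There was 1 library per group, so no spread between replicates and no test between conditions exist, and no p-values are given. A value in parentheses after a fold is a 95% counting interval from the exact binomial interval of the cold share of the gene's reads, after scaling. It compares these 2 libraries and covers counting error only. Each read stands for 1 RNA molecule, so reads were not divided by transcript length. Levels are scaled reads per 1000000 reads of the scaled library. Fewer cells of a type and less RNA per cell cannot be told apart in pooled tissue.

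The tissue label held in both libraries: Ucp1, the uncoupling protein that defines brown adipocytes, had 14526 reads in the cold and 14860 in the control library. Of the hepatocyte markers Alb, Apoa2 and Ttr, only Apoa2 was listed, with 3 and 1 reads. Skeletal muscle markers stood apart. All 15 were detected, none at 0, and they took 0.189% of reads in the cold and 0.0362% in the control library, a scaled ratio of 4.62 (4.22 to 5.06). All 14 of them with at least 20 summed reads had an interval above a ratio of 1. Of the 7 brown adipocyte markers, 5 had an interval above a ratio of 1 and 1, Adipoq, below it, with a ratio of 1.19 (1.17 to 1.22) for their summed reads. White adipocyte markers were 2.58-fold higher in summed reads (2.17 to 3.07), with 414 reads in the cold and 198 in the control library, none at 0, 3 of 4 measured markers above a ratio of 1, and Lep below it. Of the endothelial markers 2 of 5 lay above a ratio of 1, and of the macrophage markers Lyz2, the only one with at least 20 summed reads, did so. Of all genes with at least 20 summed reads, 11.3% lay above a ratio of 1 and 11.3% below it. With at least 100 summed reads these shares were 19.2% and 20.1%. The part of the cell types above in the carriers' values was not tested.

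The sequence before the start of Slc25a34 is shown because this carrier had the largest difference among the 26 measured members. The 250 bases upstream of its RefSeq start (build GRCm38.p6, chr4:141623835-141624084, minus strand) are written 5' to 3'. Capitals mark the reverse complement of AAGGTCA, a short motif of nuclear receptors that is only part of a full response element, at positions -119 to -113.
Slc25a34 promoter: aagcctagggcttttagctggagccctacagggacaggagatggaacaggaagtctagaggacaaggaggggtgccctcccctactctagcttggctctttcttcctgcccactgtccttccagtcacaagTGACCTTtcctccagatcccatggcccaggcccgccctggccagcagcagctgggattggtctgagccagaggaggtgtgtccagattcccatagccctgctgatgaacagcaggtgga
AAGGTCA was searched on both strands after this sequence had been read. It is in 4.08% of the 32851 promoter windows of that length and in 1 of the members' 44 windows (2.27%). It overlaps the ERR response element TCAAGGTCA, which none of the 44 windows of the 34 members in the RefSeq table held, against 0.387% of all windows. The cAMP response element TGACGTCA was found upstream of Slc25a25 and Slc25a36 and in 1.55% of all windows, and not upstream of Slc25a34. The E-box CACGTG was in 7 of the 44 windows (15.9%), from 6 members, and in 6.02% of all windows, and the median GC content was 57.4% in the members' windows and 52.4% in all windows. The nuclear receptor motif direct repeat 1 was in none of the members' windows and in 0.0335% of all. A match in letters is a description of the window and not a measured binding site.

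The 3 sequences below carry the transcript forms described later. Slc25a3, the phosphate carrier, uses either of 2 coding exons of nearly equal length, of which the upstream one is known from heart and muscle and the downstream one from most tissues. In the GENCODE transcripts on GRCm38, the upstream exon lies at chr10:91122207-91122331 and the downstream one at chr10:91121922-91122043, both on the minus strand. Capitals mark bases that differ in a global alignment, including 3 bases that only the upstream exon has, and 77 of 125 aligned positions (61.6%) are identical. The last line is the junction in the mRNA of Slc25a39, a glutathione carrier. Its capitals mark 24 coding bases (chr11:102405803-102405826, minus strand) that Slc25a39-201 includes and Slc25a39-202 skips.
Slc25a3 upstream exon: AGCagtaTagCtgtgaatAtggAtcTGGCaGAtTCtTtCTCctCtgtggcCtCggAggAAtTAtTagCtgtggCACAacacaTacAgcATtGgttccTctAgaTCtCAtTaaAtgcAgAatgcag
Slc25a3 downstream exon: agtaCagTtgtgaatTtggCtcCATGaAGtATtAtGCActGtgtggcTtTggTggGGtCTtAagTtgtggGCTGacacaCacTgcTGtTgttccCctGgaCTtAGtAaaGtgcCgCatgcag
Slc25a39 stretch: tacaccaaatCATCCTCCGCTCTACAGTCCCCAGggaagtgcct

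As a family, the carriers took slightly more of the reads in the cold library. All 45 together had 5646 reads in the cold and 6009 in the control library, or 0.464% (0.452 to 0.477) and 0.354% (0.345 to 0.363) of all reads, a scaled ratio of 1.16 (1.12 to 1.20). The median log2 ratio of the 26 measured members was 0.20, beside -0.0025 over 7529 genes with at least 20 summed reads. It was 0.38 with total counts, a scaling that moved the median of all genes to 0.17. The interval lay above a ratio of 1 for 11 of 26 members (42.3%), where 11.3% of all genes measured did so. It lay below 1 for 4 (15.4%), where 11.3% of all genes did. The members were more deeply read, with a median of 202 summed reads against 65 for all genes, which narrows their intervals. Among genes with at least 100 summed reads, 9 of 19 members lay above 1 and 4 below it, where 19.2% and 20.1% of all such genes did. At least 2-fold apart with such an interval were 4 members higher in the cold library, where 4.20% of all genes were, and 1 lower, where 4.08% were. With at least 100 summed reads these were Slc25a17 and Slc25a34, where 3.47% of such genes were, and Slc25a23, where 2.35% were.

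The order of levels was led by the same 5 carriers in both libraries. Slc25a5, Slc25a39, Slc25a4, Slc25a51 and Slc25a3 held 60.7% of member reads in the cold and 61.7% in the control library. Within these, Slc25a3 stood below Slc25a4 and Slc25a51 in the cold library and above them in the control. Slc25a17 stood at rank 6 in the cold library and at rank 11 in the control. Slc25a34 stood at rank 11 in the cold library and at rank 23 in the control, and Slc25a23 at rank 17 and at rank 10. At the low end, 13 members had 1 to 18 summed reads, and Slc25a2, Slc25a18, Slc25a21, Slc25a41, Slc25a43 and Slc25a54 were listed in neither file. A count of 0 allows up to 3 reads in a library.

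**Figure D1:**
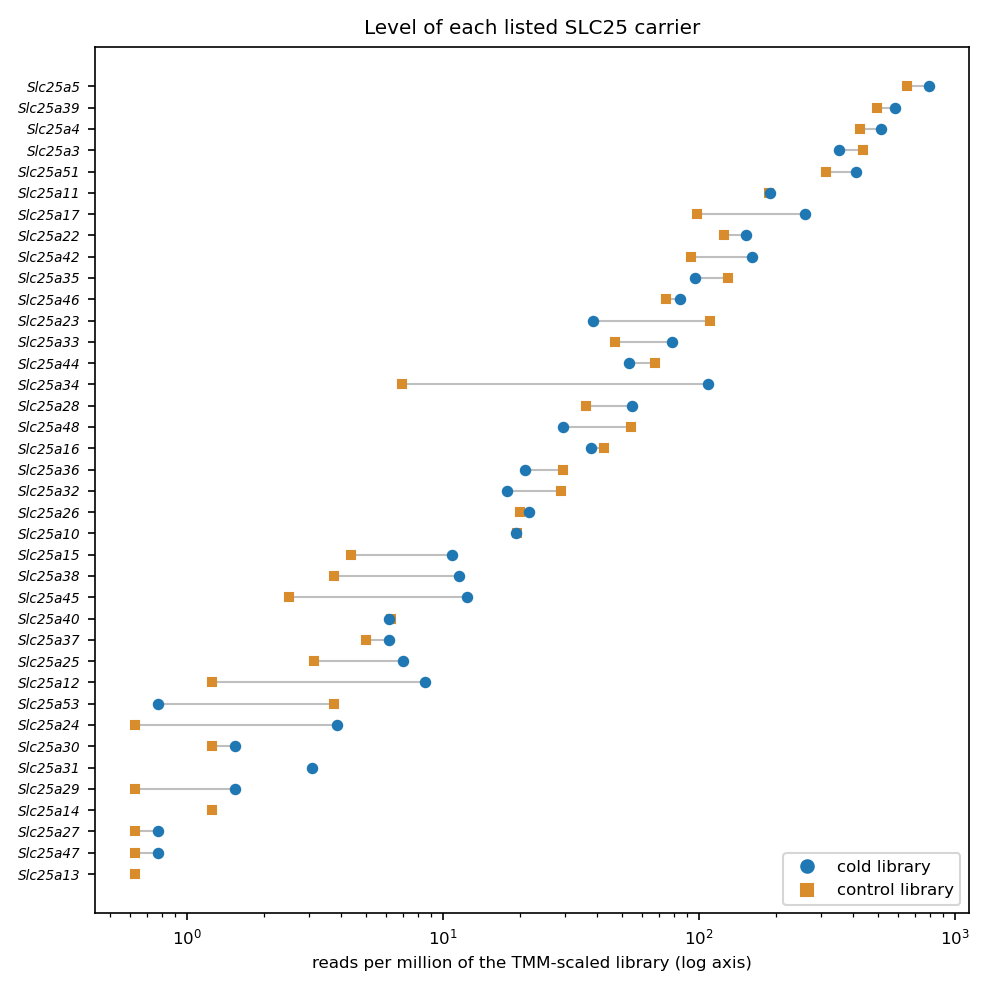
Reads per 1000000 reads of the scaled library (log axis) for 38 listed SLC25 carriers, ordered by summed reads, with circles for the cold library and squares for the control library; a member at 0 in a library has no point there. Slc25a5 leads at 791 in the cold and 651 in the control library, and the widest gap among well-read members is that of Slc25a34, at 108 and 6.89.

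Carriers for the products and substrates of ATP synthase differed in opposite directions. Slc25a5, which exchanges matrix ATP for cytosolic ADP and is the form of most tissues (chrX:36795651-36798807), had 1024 reads in the cold and 1039 in the control library and was 1.22-fold higher in the cold library (1.11 to 1.33). Its relative Slc25a4, the form abundant in heart and muscle, had 666 and 677 reads and a nearly identical ratio of 1.21 (1.09 to 1.35). The ratios of these carriers did not differ beyond counting error. Slc25a4 made up 39.4% (37.1 to 41.8) of the reads of these 2 genes in the cold and 39.5% (37.1 to 41.8) in the control library, a difference of -0.044 percentage points with an interval from -3.32 to 3.24. This share does not depend on the scaling. The summed muscle markers were 4.62-fold higher in the cold library, and their part in this share was not tested. Slc25a31, the form of male germ cells, had 4 reads in the cold and none in the control library, and its interval held a ratio of 1. Slc25a3, which brings in the phosphate for ATP synthesis, had 458 reads in the cold and 700 in the control library and was 1.24-fold lower in the cold library (1.10 to 1.40). With total counts its log2 ratio of -0.31 became -0.13, with an interval that held a ratio of 1.

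The calcium-regulated carriers that move ATP-Mg against phosphate, and so set the size of the matrix adenine nucleotide pool, were represented mainly by Slc25a23. It had 50 reads in the cold and 177 in the control library and was 2.87-fold lower in the cold library (2.09 to 4.01), the lowest ratio among the 26 measured members (chr17:57043711-57059863). Its relatives had few reads. Slc25a25 had 9 reads in the cold and 5 in the control library, and Slc25a24 had 5 and 1, with intervals that held a ratio of 1. The summed reads of this group were 64 in the cold and 183 in the control library.

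Among the carriers of nucleotides and cofactors described here, 4 were higher in the cold library and none lower, where 11.3% of all genes measured were higher and 11.3% lower. Several of these carriers were deeply read, and with at least 100 summed reads those shares of all genes were 19.2% and 20.1%. Slc25a17, a carrier of the peroxisomal membrane that moves coenzyme A, FAD and related nucleotides, had 336 reads in the cold and 157 in the control library, 2.64-fold higher (2.18 to 3.21; chr15:81318911-81360812). Slc25a42, the mitochondrial carrier of coenzyme A, had 209 and 149 reads and was 1.73-fold higher in the cold library (1.40 to 2.15). Slc25a17 and Slc25a42, like Slc25a33 and Slc25a51 below, had more reads in the cold library, although it is the smaller one. Slc25a33, a carrier of pyrimidine nucleotides, had 102 reads in the cold and 75 in the control library, 1.68-fold higher (1.23 to 2.29). Slc25a51, which imports NAD+, had 529 and 500 reads, 1.30-fold higher in the cold library (1.15 to 1.48). The other pyrimidine nucleotide carrier, Slc25a36, had 27 reads in the cold and 47 in the control library, a ratio of 0.708 (0.424 to 1.16).

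Other carriers of that group had intervals that held a ratio of 1. Slc25a32, for folate and FAD, had 23 reads in the cold and 46 in the control library, a ratio of 0.617 (0.357 to 1.04). Slc25a16, placed with the coenzyme A carriers from its yeast relative, had 49 reads in the cold and 68 in the control library, and Slc25a26, for S-adenosylmethionine, had 28 and 32.

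**Figure D2:**
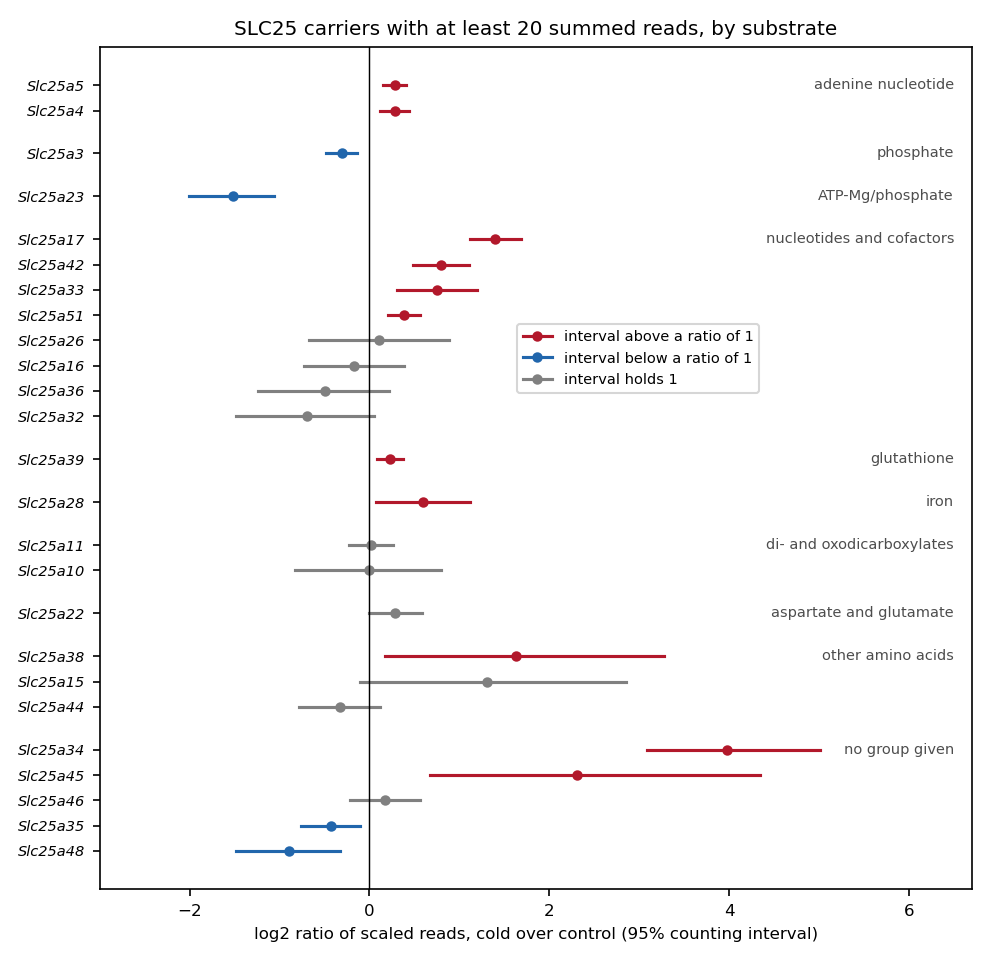
Log2 ratio of scaled reads, cold over control, with 95% counting intervals for 25 SLC25 carriers with at least 20 summed reads, grouped by substrate. Of the members shown, 11 have intervals to the right of the line and 4 to its left, and Slc25a34 stands at the far right with 15.7-fold more reads in the cold library.

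Carriers of glutathione and iron, which serve redox balance and the making of heme and iron-sulphur clusters, were led by Slc25a39 and Slc25a28, both higher in the cold library. Slc25a39, for glutathione, had 752 reads in the cold and 792 in the control library, 1.17-fold higher (1.06 to 1.30), while its relative Slc25a40 had 8 and 10 reads. Slc25a28, the mitoferrin found in most tissues, had 71 and 58 reads and was 1.51-fold higher in the cold library (1.05 to 2.17). With protein-coding transcripts alone its interval held a ratio of 1, on 51 and 42 reads. Slc25a37, the mitoferrin of red blood cell precursors, had 8 reads in each library. Slc25a38, which carries glycine for heme synthesis, had 15 reads in the cold and 6 in the control library, 3.08-fold higher (1.13 to 9.70). Erythroid markers with at least 20 summed reads had an interval below a ratio of 1 for 3 of 4 and above it for none. Of all genes measured 11.3% lay below it, and 20.1% of those with at least 100 summed reads. The erythroid marker Alas2, with 13 and 5 reads, was 3.21-fold higher in the cold library (1.07 to 11.5). None of the 5 was at 0, their summed reads were 2746 in the cold and 3867 in the control library, and their part in the result was not tested.

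The 2 organic acid carriers measured among the members had ratios near 1, and the citrate carrier Slc25a1, outside the rule, is described later. Among carriers of amino acids with at least 20 summed reads only Slc25a38, described above, had an interval that left out 1. Slc25a11, which exchanges oxoglutarate for malate in the malate-aspartate shuttle, had 246 reads in the cold and 300 in the control library, a ratio of 1.01 (0.851 to 1.20). Slc25a10, the dicarboxylate carrier, had 25 and 31 reads, a ratio of 0.994 (0.563 to 1.74). The intervals leave room for moderate differences in Slc25a10 and for smaller ones in Slc25a11. Slc25a22, a glutamate carrier, had 198 reads in the cold and 200 in the control library, a ratio of 1.22 (0.998 to 1.49), and its interval lay above 1 with total counts. The aspartate and glutamate carriers of the malate-aspartate shuttle were sparse. Slc25a12 had 11 reads in the cold and 2 in the control library, a ratio of 6.78 (1.48 to 63.0), and Slc25a13 had 0 and 1, all under the minimum of 20 summed reads. Slc25a44, which takes branched-chain amino acids into brown fat mitochondria, had 69 reads in the cold and 107 in the control library, a ratio of 0.795 (0.579 to 1.09). Slc25a15, the ornithine carrier, had 14 and 7 reads, a ratio of 2.47 (0.932 to 7.22), and Slc25a29, for basic amino acids, had 2 and 1.

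Relatives of the uncoupling proteins outside the Ucp genes were near the limit of detection. Slc25a30 had 2 reads in each library, Slc25a27 had 1 in each, and Slc25a14 had 0 in the cold and 2 in the control library.

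The members with no substrate group gave both the highest ratio and 2 of the 4 lower ones. Slc25a34 (chr4:141618824-141623821), whose substrate is not given here, had 140 reads in the cold and 11 in the control library, 15.7-fold higher (8.51 to 32.2). All of these reads were on its only listed transcript, Slc25a34-201, so its ratio does not turn on how reads were split between forms. Its close relative Slc25a35 went the other way, with 125 reads in the cold and 208 in the control library, 1.35-fold lower (1.08 to 1.70). With total counts the interval of Slc25a35 held a ratio of 1. Slc25a34 made up 52.8% (46.6 to 59.0) of the reads of these 2 genes in the cold and 5.02% (2.53 to 8.81) in the control library, a difference of 47.8 percentage points (40.7 to 54.1). The 2 relatives thus had similar reads in the cold library and very unequal reads in the control.

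Muscle markers were also higher in the cold library, and their part in the Slc25a34 result was not tested. The ratio of Slc25a34 lay above those of all 14 markers with at least 20 summed reads, which ran from 3.13 for Mylpf to 7.15 for Actn3. Its interval of 8.51 to 32.2 lay above that of the summed markers, 4.22 to 5.06, and overlapped those of Actn3 (2.74 to 23.7), Eno3, Mb, Myh1, Myh2 and Tnni2.

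**Figure D3:**
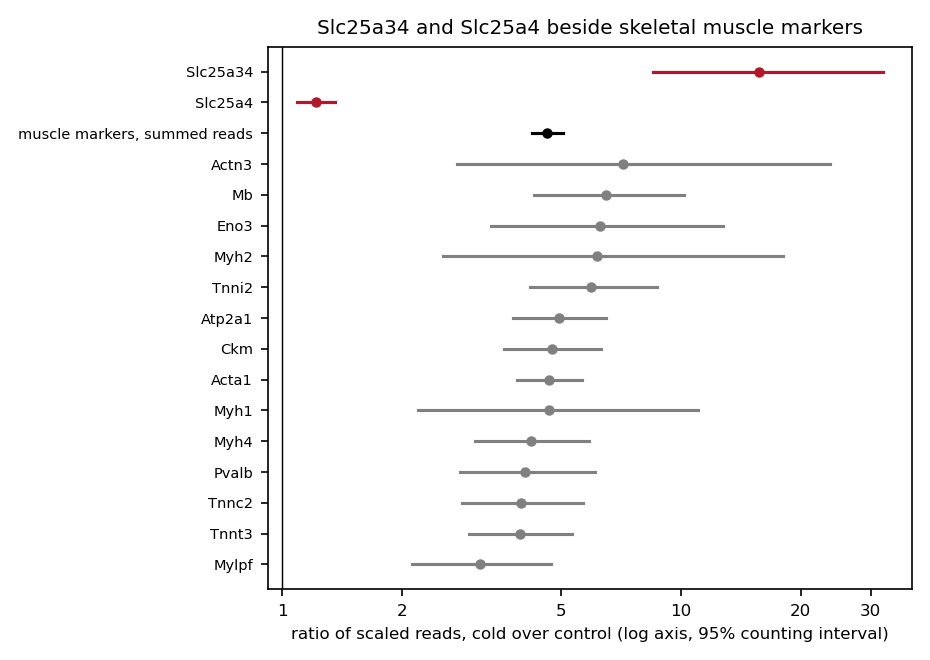
Ratio of scaled reads, cold over control (log axis), with 95% counting intervals for Slc25a34, Slc25a4, the summed reads of 15 skeletal muscle markers and the 14 markers with at least 20 summed reads. Slc25a34 at 15.7 lies above and Slc25a4 at 1.21 below all the markers' ratios.

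Slc25a48, described as a choline carrier, had 38 reads in the cold and 87 in the control library and was 1.86-fold lower in the cold library (1.25 to 2.79). Slc25a45 had 16 and 4 reads, a ratio of 4.93 (1.59 to 20.3), and no longer passed from its most abundant transcript alone, on 7 and 3 reads. Slc25a46, an outer membrane member that acts in mitochondrial fission and fusion, had 109 reads in the cold and 119 in the control library, a ratio of 1.13 (0.863 to 1.48). Slc25a53 had 1 read in the cold and 6 in the control library and Slc25a47, a carrier of liver, had 1 in each.

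Transcript forms were compared within each member, which needs no scaling between libraries. Of member reads, 90.1% in the cold and 89.9% in the control library fell on protein-coding transcripts, 7.78% and 7.72% on transcripts with a retained intron, and 1.81% and 2.11% on those marked for nonsense-mediated decay. At least 50 reads in each library were found for 16 members, and 14 of these had more than 1 listed transcript. Of their 56 transcripts, the interval of the difference in share left out 0 for 4 (7.14%), near the 5.97% of 7309 transcripts of all genes chosen the same way, so the count is no result about the carriers. These were Slc25a39-201, Slc25a39-202, Slc25a3-203 and the sparse Slc25a5-203, with 0 and 5 reads.

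The values of the 2 Slc25a39 forms among these are given as a description, and their shares do not stand for 1 stretch alone. Slc25a39-201 is 1685 bases long and Slc25a39-202 is 1606, so they differ by more than the 24 bases printed above. Slc25a39-201, which includes them, had 404 reads in the cold and 373 in the control library, or 53.7% (50.1 to 57.3) and 47.1% (43.6 to 50.6) of the gene's reads, a difference of 6.63 points (1.64 to 11.6). Slc25a39-202, which skips them, had 61 and 97 reads, or 8.11% in the cold and 12.2% in the control library, a difference of -4.14 points (-7.16 to -1.11). Another form, with a retained intron, Slc25a39-213, held 36.3% in the cold and 38.9% in the control library, with an interval of the difference that held 0.

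The shares of Slc25a3 reads assigned to each exon choice differed by less than counting error between the 2 libraries. Reads began at the 3' end, and a read that stops short of these exons cannot tell the forms apart. The intervals do not cover this error of assignment. Among its coding transcripts, the upstream exon printed above had 30 reads in the cold and 53 in the control library, or 7.32% (4.99 to 10.3) and 8.65% (6.54 to 11.2), a difference of -1.33 points (-4.61 to 2.21). Most reads of its coding transcripts were thus assigned to forms with the downstream exon in both libraries. Slc25a3-203, counted here with the downstream exon, held 28.8% of reads in the cold and 23.0% in the control library, a difference of 5.82 points (0.693 to 11.1). Slc25a3-202, the form marked for decay, had 39 and 70 reads, with an interval of the difference in share from -4.79 to 2.05 points. With this form counted as holding the upstream exon, the share of that exon was 15.4% in the cold and 18.0% in the control library. The interval of that difference ran from -6.95 to 1.88 points. The upstream exon is the form known from muscle, and the part of muscle RNA in its share was not tested.

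**Figure D4:**
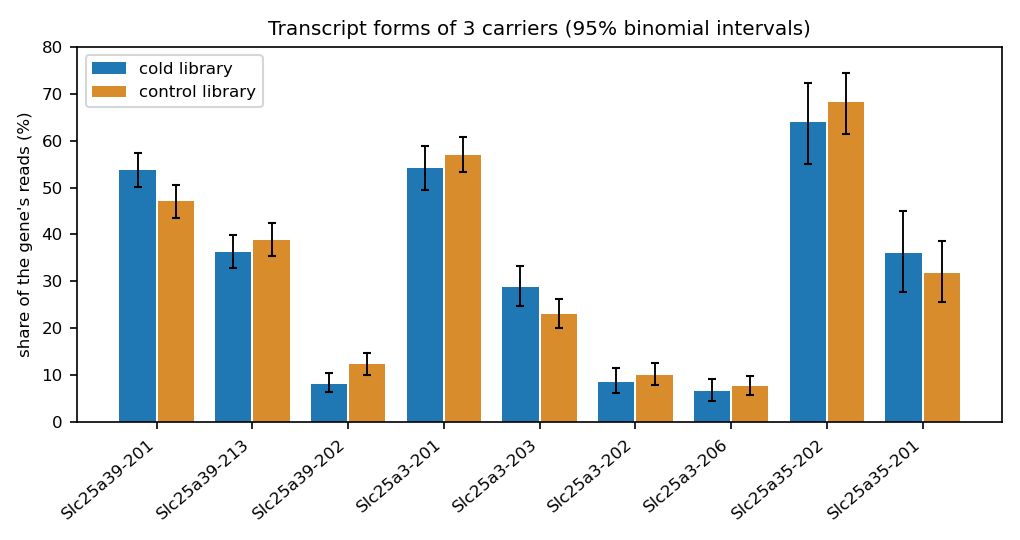
Share of a gene's reads (%) on transcripts of Slc25a39, Slc25a3 and Slc25a35 in the cold and the control library, with exact 95% binomial intervals. Slc25a39-201 held 53.7% in the cold and 47.1% in the control library, while the 2 forms of Slc25a35 differed by less than counting error.

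Shares of the other forms named here differed by less than counting error. Slc25a35 has a long form, Slc25a35-201, with 45 reads in the cold and 66 in the control library, or 36.0% (27.6 to 45.1) and 31.7% (25.5 to 38.5), and the shorter Slc25a35-202 held the rest. Slc25a42 had a form with a retained intron, Slc25a42-204, at 42.1% in the cold and 41.6% in the control library, a difference of 0.49 points (-9.83 to 10.7). Slc25a51-201 and Slc25a51-202 differ by a few bases at the 5' end and took 49.3% and 50.7% of its reads in the cold library, so the split between them is uncertain. Slc25a44-201 held 46.4% of that gene's reads in the cold and 35.5% in the control library, a difference of 10.9 points (-3.82 to 25.2). Slc25a22 was spread over 7 listed forms, of which Slc25a22-221, with a retained intron, differed most, at 11.1% in the cold and 17.5% in the control library (-13.3 to 0.53 points). Wide intervals mark the sparser of these genes. Genes on the opposite strand overlap Slc25a11, Slc25a35, Slc25a46 and others, of which Rangrf, across Slc25a35, had 2 reads in the cold and 3 in the control library.

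Family members outside the rule and the machinery that inserts carriers give a setting for these values. Of the other family members, Ucp1, Ucp2 and Slc25a20, the carnitine and acylcarnitine carrier, had intervals above a ratio of 1, and Slc25a1, the citrate carrier, had an interval below it, with 211 reads in the cold and 1477 in the control library. Mtch2, an insertase of the outer membrane, had 622 and 790 reads, a ratio of 0.971 (0.873 to 1.08). Of 13 genes of carrier import, 1 was higher in the cold library and 1 lower (7.69% each), where 11.3% of all genes were higher and 11.3% lower. Most of the 13 were deeply read, and with at least 100 summed reads those shares of all genes were 19.2% and 20.1%. Tomm40, the outer membrane pore, had 154 reads in the cold and 143 in the control library, 1.33-fold higher (1.05 to 1.68), and Timm13, a chaperone of the intermembrane space, had 245 and 376 reads, 1.24-fold lower in the cold library (1.06 to 1.47).

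Of 13 transport proteins of other families with at least 20 summed reads, 2 were higher in the cold library (15.4%) and 3 lower (23.1%). Of all genes measured, 11.3% were higher and 11.3% lower. With at least 100 summed reads those shares of all genes were 19.2% and 20.1%. Letm1, an inner membrane cation exchanger, had 445 reads in the cold and 394 in the control library, 1.39-fold higher (1.21 to 1.60), and the outer membrane channel Vdac3 was 1.35-fold higher (1.09 to 1.68). Both subunits of the pyruvate carrier were lower in the cold library, with 1592 and 3346 reads for Mpc1 and 1781 and 2531 reads for Mpc2. The serine carrier Sfxn1 had 56 and 138 reads, 2.00-fold lower in the cold library (1.45 to 2.78).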

How the data were processed

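The data were whole-number read counts per transcript from 1 cold and 1 control library, deposited by the authors without normalization, with transcripts at 0 not listed. Per the labels' protocols, the SQK-RNA002 kit was used on 500 ng of poly(A)+ RNA. The submitters' processing notes name minimap2 and the build GRCm38. The aligner version, annotation release and treatment of reads matching several transcripts are not stated in the labels, and their extraction text names a fat depot that differs from the tissue label. Groups came from the treatment label.

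Transcripts were matched by identifier without version to GENCODE mouse M21 (GRCm38) and summed to genes. No gene was found for 79 cold transcripts (0.0652% of reads) and 75 control transcripts (0.0571%), which stayed in the library sizes. Library sizes were multiplied by edgeR 4.0.16 TMM factors (1.06 cold, 0.940 control). Log2 ratios used a prior of 0.5 reads. Intervals were exact Clopper-Pearson for shares and Newcombe for differences of shares, at 95%, from scipy 1.17.1. The ratio script was tested on simulated data. No count model was fitted, since there is 1 library per group, and values compare libraries.

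Members with at least 20 summed reads are named with their reads, and transcripts for the largest differences in share, except that 1 member is not reported here on its own and is left out of the figures, though it stays in the counts and sums over all members. Members, gene lists and substrate groups were chosen with earlier results of these data known. Alternatives were total counts with and without mitochondrially encoded genes, DESeq2 1.42.0 size factors, read minimums of 1 and 100, priors, transcript subsets and added pseudogenes. Protein sequences were not used here, so the planned protein identities were not computed. RefSeq promoter windows were on GRCm38.p6. In a search of 31-base words, no member had 30% or more of its words in another member, and of the other genes with as many of their words in a member, only Gm16867, a copy of Slc25a37, had reads, 3 in the cold and 4 in the control library.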

Additional observations from a re-analysis of the deposited data

How the results depend on the processing

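No paired analysis was possible because each group holds 1 library and the shared number is only a name. No direction among the 15 called members was reversed under any alternative run. The median log2 ratio of the members, 0.20, was 0.38 with total counts and 0.17 by DESeq2 scaling. It was 0.33 with totals that leave out mitochondrially encoded genes. It was 0.23 with at least 1 and also with at least 100 summed reads, 0.17 from the most abundant transcript alone and 0.26 from protein-coding transcripts. Adding genes with at least 30% of their 31-base words in a member, a choice made after seeing the data, gave 0.17. That median was over 27 members, since Slc25a37 then passed the minimum of 20 summed reads. With at least 1 summed read, the median stayed 0.23 over 39 members with Slc25a31 set to its bound. Slc25a13 and Slc25a14, at 0 in the cold library with too few control reads for a bound, kept their log2 ratios. The log2 ratio of summed reads, 0.21, was 0.39 with total counts and 0.34 without mitochondrially encoded genes. With total counts 2 members lay below a ratio of 1 in place of 4, and over all genes 522 were at least 2-fold higher and 189 lower in place of 316 and 307. With at least 100 summed reads, the 4 members at least 2-fold higher became 2, and 93 genes were that much higher and 63 lower, since fewer genes were tested. Of the 26 members, 22 kept their call with total counts, where Slc25a15 and Slc25a22 gained one and Slc25a3 and Slc25a35 lost it, and 26 with DESeq2 size factors. From the most abundant transcript alone Slc25a28 and Slc25a45 lost their call, and Slc25a22, which had none, turned to -0.03 in log2 ratio. Leaving out a library is not possible with 1 per group. Members under 20 summed reads are limited by depth.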
